A study of Mus musculus with 6 samples.

Results

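The genes described here encode the respiratory chain, the enzyme complexes of the inner mitochondrial membrane that pass electrons to oxygen and make ATP. They were chosen by symbol alone: the mitochondrial genes for subunits of complexes I, III, IV and V, and the nuclear families Nduf, Sdh, Uqcr, Cox and Atp5, without symbols that end in a pseudogene tag. The choice gave 112 of 35703 genes in the table, 13 in the mitochondrial genome and 99 in the nuclear genome. Of the nuclear genes, 77 encode subunits, 8 are assembly factors of complex I (Ndufaf1 to Ndufaf8), 8 are tissue forms of complex IV subunits, 5 are gene copies and 1 (Cox7a2l) encodes a factor that links complexes into supercomplexes. Ndufa4 and its relative Ndufa4l2 were placed in complex IV, where the protein resides.

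RNA was sequenced from the livers of 6 mice, 3 Surf4 fl/fl Alb-Cre+ and 3 Surf4 fl/fl Alb-Cre- littermates, with 1 library per mouse. All mice of both groups carried the floxed Surf4 allele, in which exon 2 is flanked by loxP sites, so the groups differed in the Alb-Cre transgene and the deletion it causes. Surf4 encodes a receptor that carries secreted proteins out of the endoplasmic reticulum, and the comparison asked how its loss from hepatocytes altered the liver transcriptome. Replicate 2 of either genotype was a female and the other mice were males, all on a C57BL/6J background, fed standard chow and fasted before the liver was taken, and their age is not given in the sources used here. The Cre recombinase was driven by the albumin promoter, which is active in hepatocytes and not in the other cells of the liver.

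Mitochondria keep a small circular genome whose protein genes all belong to the respiratory chain, and they import every other subunit from the cytosol. Complexes I, III, IV and V are therefore built from both genomes, whereas complex II, which is also the succinate dehydrogenase of the citric acid cycle, is built from nuclear genes alone. The mitochondrial genes are transcribed as long strands from promoters in the control region and then cut into single RNAs, while each nuclear gene has its own promoter, and hepatocytes are among the cells richest in mitochondria.

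Values are in TPM, a unit of transcript abundance in which values are scaled for transcript length and made to sum to 1000000 in every mouse, so levels of different genes can be set beside each other. Read counts behind the TPM were not analysed here and the depth is unknown. Surf4 was at 59.0, 71.8 and 54.3 TPM in Alb-Cre+ replicates 1 to 3 and at 92.5, 94.5 and 92.5 TPM in the Alb-Cre- mice. The groups did not overlap, and the Alb-Cre+ mean was 66.3% of the Alb-Cre- mean. This sum does not separate intact Surf4 transcripts from those that lack the floxed exon. How much intact Surf4 mRNA remained therefore cannot be read from it. The paper reports that transcripts with that exon fell to a small part of the control level, while transcripts without it remained. Hepatocyte markers were far above the markers listed for other cell types in every library. Their summed level was 88107 to 111645 TPM in Alb-Cre+ and 106298 to 116823 TPM in Alb-Cre- mice over 11 genes of 11. Apoa1, 1 of the 11, was at 10222, 9779 and 8802 TPM in Alb-Cre+ and 17603, 20844 and 15764 TPM in Alb-Cre- mice. Of the 11, 8 were estimated lower and 3 higher in Alb-Cre+. Kupffer cell markers summed to 633 and 580 TPM in the female mice and to between 168 and 250 TPM in the males. Skeletal muscle markers summed to no more than 2.63 TPM in any mouse, and Ucp1, the defining gene of brown fat, was listed at 0 in all 6. In a whole tissue, fewer cells of a type and less RNA per cell cannot be told apart.

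The 13 mitochondrial genes lie on the mitochondrial chromosome of GRCm38, each as a single exon, and 3 pairs of neighbours share bases on the same strand. The 2 longer shared stretches are shown because their bases belong to both genes. The end of mt-Atp8 and the start of mt-Atp6 share 43 bases (chrM:7927-7969), and the end of mt-Nd4l and the start of mt-Nd4 share 7 bases (chrM:10167-10173). mt-Atp6 and mt-Co3 share 1 base. Capitals mark the start codon of the second gene at the left and the stop codon of the first gene at the right.
mt-Atp8 and mt-Atp6: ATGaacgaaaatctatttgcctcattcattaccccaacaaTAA
mt-Nd4l and mt-Nd4: ATGcTAA

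mt-Nd5 and mt-Nd6 lie on opposite strands and share their last 14 bases (chrM:13552-13565). Of the mitochondrial genes, mt-Co3, mt-Nd4 and mt-Cytb, end in a lone T in the annotation, the partial stop codon that the poly(A) tail completes.

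The nuclear genes were spread over 19 chromosomes. The annotated transcript with the highest TPM of a nuclear subunit gene had a median length of 704 bases and a median of 4 exons. RefSeq promoters of the GRCm38.p6 build, from 250 bases before to 50 bases after the start of a transcript, were matched by symbol for 77 of the 99 nuclear genes in 82 windows. A pair of motifs known from promoters of respiratory genes was more frequent in these windows than in the 10812 windows of genes averaging 1 TPM or more. The core of the NRF1 site, GCGCATGCG on either strand, stood in 12.2% of the respiratory chain windows, 3.64% of those of expressed genes and 1.75% of all 32851 windows. AAGATGGCG, a form of the YY1 site, stood in 9.76%, 3.21% and 1.40% of the same sets. The ETS motif CCGGAAG, bound by GABP, was closer to the expressed background at 23.2% against 18.0%, and the SP1 motif GGGCGG was less frequent, at 43.9% against 61.7%. TATAAA on the coding strand stood in 3.66% of the respiratory chain windows and 4.58% of those of expressed genes. A match describes letters only and is not evidence that a factor bound there.

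A pair of promoters that hold both the NRF1 core and the ETS motif is shown, 1 of a complex IV gene and 1 of a complex V gene, to let the windows be read beside the levels given for these genes below. Cox6a1 encodes the form of subunit 6a used outside muscle (window chr5:115348909-115349208, minus strand), and Atp5k encodes subunit e of ATP synthase (window chr5:108434350-108434649, minus strand). Capitals mark matches on either strand to GCGCANGCG, in which N is any base, and to CCGGAAG.
Cox6a1: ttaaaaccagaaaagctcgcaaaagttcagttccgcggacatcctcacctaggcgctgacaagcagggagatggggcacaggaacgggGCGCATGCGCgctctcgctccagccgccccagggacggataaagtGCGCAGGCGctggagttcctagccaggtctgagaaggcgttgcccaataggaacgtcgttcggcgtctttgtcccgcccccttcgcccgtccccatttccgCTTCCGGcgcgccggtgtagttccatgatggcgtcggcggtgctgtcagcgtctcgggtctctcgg
Atp5k: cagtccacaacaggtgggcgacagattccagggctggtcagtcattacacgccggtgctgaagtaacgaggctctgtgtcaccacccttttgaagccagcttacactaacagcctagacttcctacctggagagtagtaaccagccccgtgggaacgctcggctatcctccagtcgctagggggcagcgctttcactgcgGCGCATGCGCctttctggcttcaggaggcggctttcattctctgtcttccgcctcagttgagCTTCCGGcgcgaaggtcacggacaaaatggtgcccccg

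The respiratory chain took a large share of the TPM, and most of that share was mitochondrial. The deposited values cover mainly transcripts of protein-coding genes and pseudogenes, with only 65 transcripts typed as lincRNA. The shares are therefore not shares of all liver RNA. The 13 mitochondrial genes summed to between 10.8% and 12.2% of all TPM in the 6 mice, and the 99 nuclear genes to between 2.51% and 3.00%. The mitochondrial genes thus held 78.5% to 83.0% of the respiratory chain transcripts. Of the 13, 12 had a mean above that of every nuclear gene, and the lowest of these 12, mt-Atp8 with 2859 TPM, was 1.76 times the highest nuclear gene, Atp5b with 1622 TPM.

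**Figure D1:**
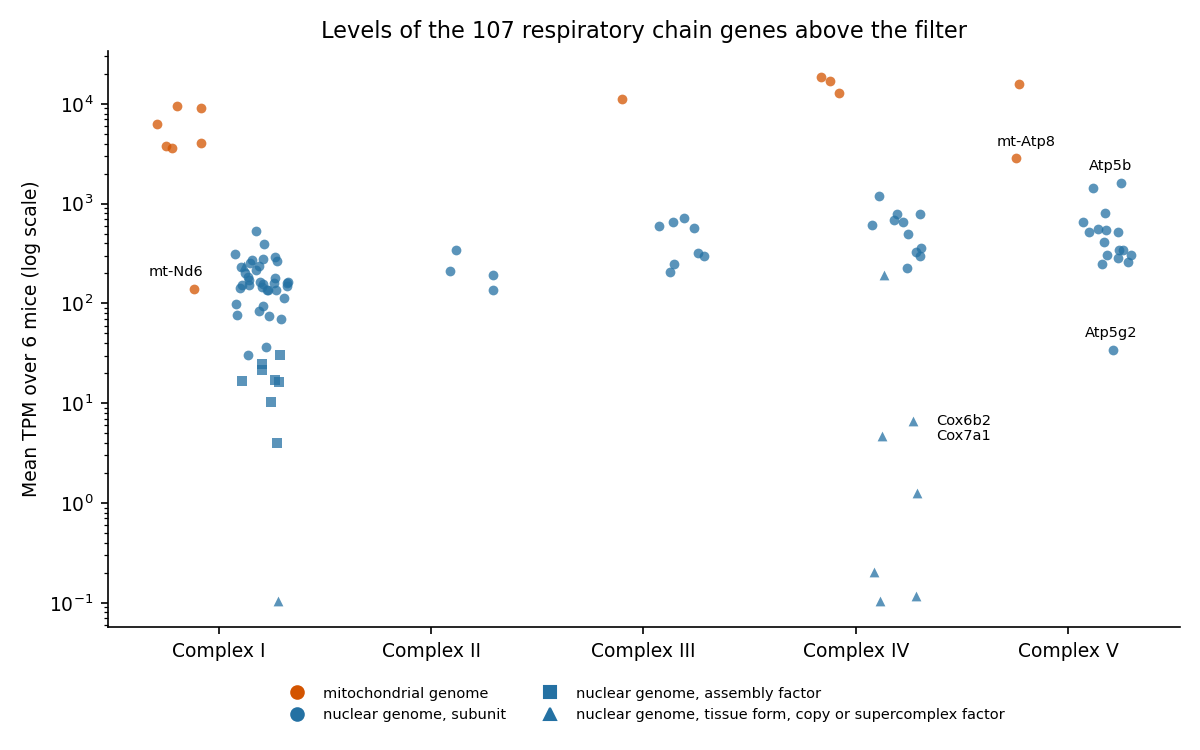
Mean TPM over the 6 mice on a log axis for the 107 genes averaging 0.1 TPM or more, by complex, with mitochondrial genes in orange and nuclear genes in blue. In complexes I, III, IV and V the orange points lie above the blue ones, with the exception of mt-Nd6 at 140 TPM, and the triangles at the foot of complex IV are tissue forms.

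Within each shared complex the median of the mitochondrial subunits stood over that of the nuclear ones by a similar factor. The median over mitochondrial subunits was 25.8 times the median over nuclear subunits in complex I, 25.5 times in complex III, 27.6 times in complex IV and 22.7 times in complex V. These ratios compare levels of RNA, and complex III has only 1 mitochondrial gene.

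The mitochondrial genes differed among themselves more than the means of the complexes did. mt-Co1, mt-Co3 and mt-Co2, which encode the catalytic core of cytochrome c oxidase, had means of 18616, 16863 and 12795 TPM. mt-Atp6, the channel subunit of ATP synthase, had 15717 TPM, and mt-Cytb, the one mitochondrial subunit of complex III, had 11318 TPM. The 7 genes for membrane subunits of complex I were lower, from mt-Nd2 with 9574 and mt-Nd1 with 9087 TPM to mt-Nd4 with 6327, mt-Nd4l with 4094, mt-Nd3 with 3783 and mt-Nd5 with 3587 TPM. mt-Nd6 was far below these at 140 TPM. It is the one gene of the 13 whose coding sequence is annotated on the minus strand.

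Some neighbours in this order could not be separated. mt-Co1 ranged from 16384 to 22111 TPM over the 6 mice and mt-Co3 from 15686 to 17515 TPM, so their ranges overlapped, as did those of mt-Nd2 (8799 to 10818 TPM) and mt-Nd1 (7983 to 10429 TPM). mt-Nd6 ranged from 121 to 166 TPM, apart from all others. In each mouse mt-Atp6 was above mt-Atp8, although the same RNA carries both reading frames. Of the 31-base words in mt-Atp8, 7.47% also occur in mt-Atp6. For that part only, the division of reads between these genes rests on the model that assigned them. The cause of the gap was not tested.

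Of the 13 mitochondrial genes, 5 had more than 95% of their 31-base words in common with other annotated transcripts. For mt-Co2 (100%), mt-Co3 (99.9%), mt-Atp6 (99.5%), mt-Nd4l (98.9%) and mt-Nd3 (98.1%) these were nuclear copies of mitochondrial DNA, and nearly all such copies were at or close to 0 TPM. The exception was Gm28439, a copy of mt-Nd4 (chr1:24611535-24612410), which was listed at 30.0, 226 and 0 TPM in Alb-Cre+ and at 133, 88.1 and 209 TPM in Alb-Cre- replicates 1 to 3. These values moved without regard to genotype, and adding them to mt-Nd4 moved its mean from 6327 to 6441 TPM. The level of mt-Nd4 is uncertain by that amount.

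The highest nuclear subunit of a complex was between 2.53 times (complex II) and 47.5 times (complex V) the lowest. In complex I, which moves electrons from NADH to ubiquinone, the 37 nuclear subunits had a median of 159 TPM and ran from Ndufb1 with 30.1 TPM to Ndufb9 with 533 TPM. Accessory subunits filled the top of the order, with Ndufb9 followed by Ndufa6 (390 TPM) and Ndufa1 (312 TPM). The symbol Ndufb1 belongs to a transcript that the GENCODE M21 annotation names Ndufb1-ps and types as a non-coding RNA, so its low place is uncertain.

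Ndufb4 is a further uncertain case in complex I. It was listed at 36.6 TPM, while Ndufb4c, annotated as a processed pseudogene on chromosome 15, was listed at 239 TPM. All 31-base words of Ndufb4c also occur in Ndufb4, and the sum of both was 276 TPM, close to Ndufb8 (282 TPM). Which of both loci gave the reads cannot be told from TPM.

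In complex II, the 4 genes lay within 2.53 times of each other. Sdhd, a membrane anchor, had 346 TPM and was higher than Sdhb (214 TPM), which holds the iron-sulfur clusters, Sdha (194 TPM), the flavoprotein that oxidises succinate, and Sdhc (137 TPM), the other anchor. In complex III the 8 nuclear genes ran from Uqcrc2 (207 TPM) and Uqcrc1 (246 TPM), the large core proteins, to the small subunit Uqcrq (725 TPM). Uqcrfs1, the Rieske iron-sulfur protein, was at 299 TPM.

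Complexes IV and V held the highest nuclear genes. Of the 11 nuclear subunits of complex IV, Cox4i1 was highest with 1202 TPM and Cox7b lowest with 228 TPM, with a median of 612 TPM. In complex V, the 17 nuclear genes had a median of 410 TPM and ran from Atp5g2 with 34.2 TPM to Atp5b, the catalytic beta subunit, with 1622 TPM. Atp5a1, the alpha subunit that alternates with beta in the ring of the enzyme, was at 521 TPM, and Atp5c1, the central stalk, at 303 TPM. The 8 assembly factors of complex I, which help to build it and are not part of it, were all low, between 3.99 TPM (Ndufaf5) and 30.3 TPM (Ndufaf8).

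The isoforms listed for liver were those of the body at large, and the muscle, testis, lung and hypoxia forms were low or at 0. Cox4i1 had 1202 TPM and Cox4i2, the form of lung and low oxygen, 0.203 TPM. Cox6a1 had 795 TPM against 0.104 TPM for the muscle form Cox6a2, and Cox8a 612 TPM against 0.117 TPM for the muscle form Cox8b. The testis forms Cox8c and Cox7b2 were listed at 0 in every mouse, beside 228 TPM for Cox7b. Cox6b2, a testis form, and Cox7a1, the form of heart and skeletal muscle, were detected at a higher level than these. Cox6b2 made up 0.870% to 2.39% of the sum of Cox6b1 and Cox6b2, and Cox7a1 0.987% to 1.99% of the sum of Cox7a1 and Cox7a2. Ndufa4l2, which rises in low oxygen, was between 0.844 and 1.93 TPM, and Ndufa4 between 663 and 880 TPM.

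Subunit c, which forms the rotating ring of ATP synthase, is encoded by 3 genes that give the same mature protein. Atp5g3 supplied 68.3% to 75.3% of their summed TPM, Atp5g1 22.8% to 30.2% and Atp5g2 1.46% to 1.99%, and this order held in each of the 6 mice. Atp5g2 shares 37.5% of its 31-base words with Gm10175, a transcribed processed pseudogene on chromosome 7 that was itself listed at 246 to 319 TPM, so the share of Atp5g2 is uncertain.

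A comparison of the genotypes found no respiratory chain gene past the threshold. Genes averaging 0.1 TPM or more were tested with limma on log2(TPM + 0.1), which understates differences of low genes, and 14219 genes, 107 of them respiratory chain genes, were tested. The remaining 5, Cox6c2, Cox7b2, Cox8c, Ndufa11b and Ndufb11b, were at 0 in every mouse. At an adjusted p under 0.01 none of the 107 genes was called, and none of the 14219 was called either (background 0%). Surf4, the deleted gene, was not called in this test, with a log2 difference of -0.60 (SE 0.13, limma adjusted p = 1.00), so the absence of a call does not show that a gene did not differ. The lowest unadjusted limma p among the 107 was 0.0638, and with the replicate number as a block it was 0.0533, so none was under 0.05 in either fit. Over all genes, 113 were higher in Alb-Cre+ at an unadjusted p under 0.05 (0.795%) and 136 lower (0.956%). With the block these were 323 higher (2.27%) and 343 lower (2.41%), with none at an adjusted p under 0.01.

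The intervals of most differences were narrow enough to bound them. The 95% interval of the log2 difference lay within 1 in both directions, a factor of 2, for all 13 mitochondrial and for 88 of the 94 nuclear genes tested. It lay within 0.5 for 73 nuclear and 3 mitochondrial genes. The median standard error was 0.13 for nuclear and 0.22 for mitochondrial genes, against 0.28 over all genes tested. In limma the variance of each gene is drawn toward a trend with abundance over all genes. The widths of the intervals therefore reflect that trend as well as the spread of the gene itself. For mt-Co3 the standard error was 0.23, although its levels were 16608 ± 812 TPM in Alb-Cre+ and 17117 ± 593 TPM in Alb-Cre- mice (SD).

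**Figure D2:**
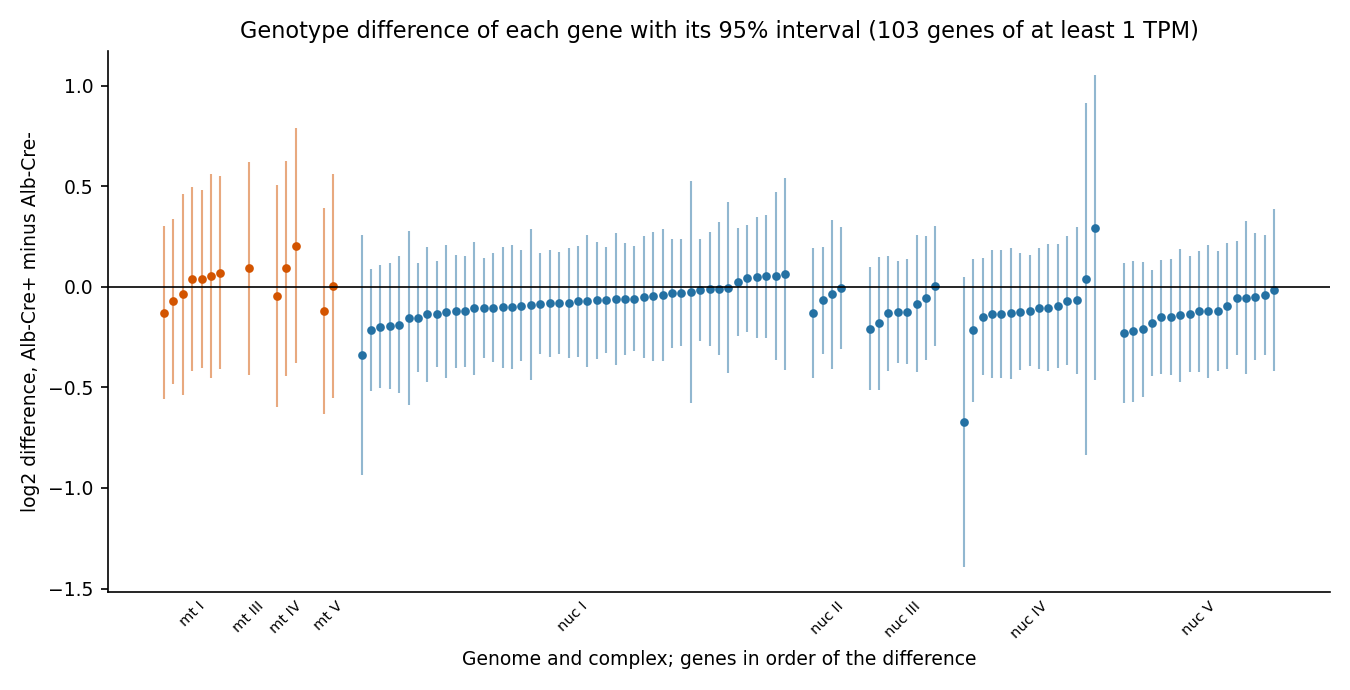
Log2 difference between Alb-Cre+ and Alb-Cre- mice, with its 95% limma interval, for the 103 genes averaging 1 TPM or more, grouped by genome and complex and sorted within each group. Every interval includes 0, and most nuclear points (blue) lie below 0 while mitochondrial points (orange) lie on both sides.

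The genomes were described by their sums in each mouse. The mitochondrial genes summed to 120131, 107758 and 122080 TPM in Alb-Cre+ replicates 1 to 3 and to 109093, 119919 and 109575 TPM in the Alb-Cre- replicates. The groups overlapped, with means of 116657 ± 7768 and 112862 ± 6116 TPM (SD, n = 3 each) and a log2 difference of 0.05. Within the pairs of equal number and sex the log2 difference was 0.14, -0.15 and 0.16, so both male pairs were higher in Alb-Cre+ and the female pair lower.

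The nuclear genes summed to 28382, 25846 and 25063 TPM in Alb-Cre+ and to 27693, 27459 and 30035 TPM in Alb-Cre- mice. These groups overlapped as well, since Alb-Cre+ replicate 1 was above 2 of the Alb-Cre- mice. The means were 26430 ± 1735 and 28396 ± 1424 TPM, the log2 difference was -0.10 beside a pooled SD of 0.08, and the pairs differed by 0.04, -0.09 and -0.26. The third pair supplied most of the difference.

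The mitochondrial sum divided by the nuclear sum is unaffected by any scaling of a library. It was 4.23, 4.17 and 4.87 in Alb-Cre+ and 3.94, 4.37 and 3.65 in Alb-Cre- mice, a log2 difference of 0.15 with a pooled SD of 0.13. The groups overlapped, and the pairs differed by 0.10, -0.07 and 0.42. In complex IV taken alone the ratio was 7.45, 7.73 and 8.26 in Alb-Cre+ and 6.83, 7.26 and 6.23 in Alb-Cre- mice, which did not overlap. The complex IV ratio was higher in Alb-Cre+ in each pair (0.13, 0.09 and 0.41), but the third pair again stood apart, and the ratios of complexes I, III and V overlapped between genotypes. As 4 complexes were looked at and the single one without overlap was noted after its values were seen, it is given as a value with no test.

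**Figure D3:**
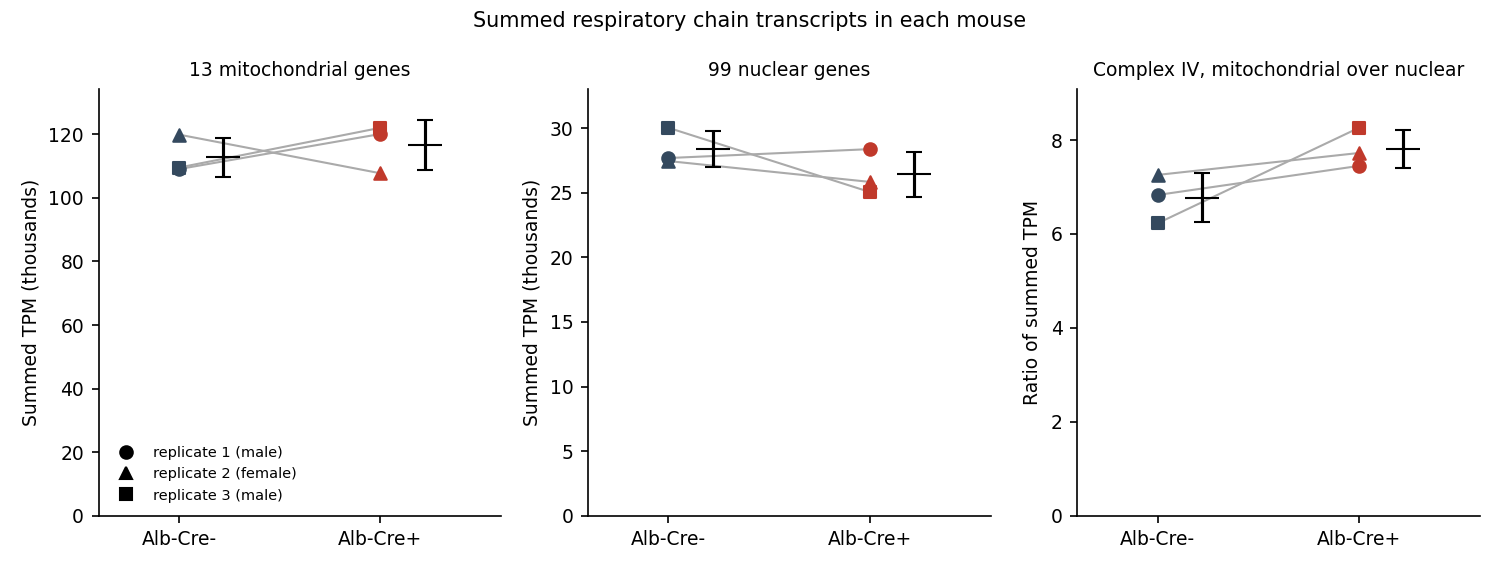
Summed TPM of the 13 mitochondrial and 99 nuclear genes and the complex IV ratio of the sums, per mouse, with each pair of equal replicate number joined and the mean and SD (n = 3) beside each group. The sums of both genomes overlap between genotypes, and the complex IV ratio is at least 7.45 in Alb-Cre+ and at most 7.26 in Alb-Cre- mice.

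Among single mitochondrial genes the estimates went both ways. mt-Co1 had the highest, at 19877, 17890 and 22111 TPM in Alb-Cre+ and 17467, 17966 and 16384 TPM in Alb-Cre- mice, a log2 difference of 0.20 (SE 0.25, limma adjusted p = 1.00). The groups overlapped by the female mice, which had nearly the same level. mt-Nd3 had the lowest, at 3812, 3115 and 3930 TPM against 3607, 4201 and 4032 TPM, a log2 difference of -0.13 (SE 0.18). Of the 13 genes, 8 were estimated higher and 5 lower in Alb-Cre+, and no gene had groups that did not overlap.

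The female pair set the mitochondrial genes apart from the male pairs. Alb-Cre+ replicate 2 had the lowest level of the 6 mice for 7 of the 13 mitochondrial genes, and Alb-Cre- replicate 2 had the highest for 5. The median log2 difference over the 13 genes was 0.10 in pair 1, -0.22 in pair 2 and 0.10 in pair 3. With 1 female pair, sex and pair cannot be told apart.

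Nuclear genes leaned to lower values in Alb-Cre+, by little. Of the 94 tested, 84 were estimated lower and 10 higher, with a median log2 difference of -0.10, whereas over all 14219 genes 7159 were lower and 7060 higher with a median of 0.00. The lean was shared by the complexes, with 41 of 47 genes lower in complex I, 4 of 4 in complex II, 7 of 8 in complex III, 15 of 18 in complex IV and 17 of 17 in complex V. Subunits were lower in 73 of 77 cases, and assembly factors in 5 of 8. The genes of a mouse share a library, so these counts are not independent of each other.

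The pairs and mice show where the lean came from. The median over nuclear genes was 0.02 in pair 1, -0.06 in pair 2 and -0.25 in pair 3, beside -0.02, 0.15 and -0.14 over all genes. Of the 90 nuclear genes averaging 1 TPM or more, Alb-Cre- replicate 3 had the highest level of the 6 mice for 51 and Alb-Cre+ replicate 3 the lowest for 51. Without Alb-Cre+ replicate 2 the nuclear median was -0.09 and the all-gene median -0.12, so that the nuclear genes were no lower than the rest. Without Alb-Cre- replicate 3 the medians were -0.053 and -0.046, nearly the same. With any other mouse left out the nuclear median stayed lower, for example -0.06 against 0.11 without Alb-Cre+ replicate 3.

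**Figure D4:**
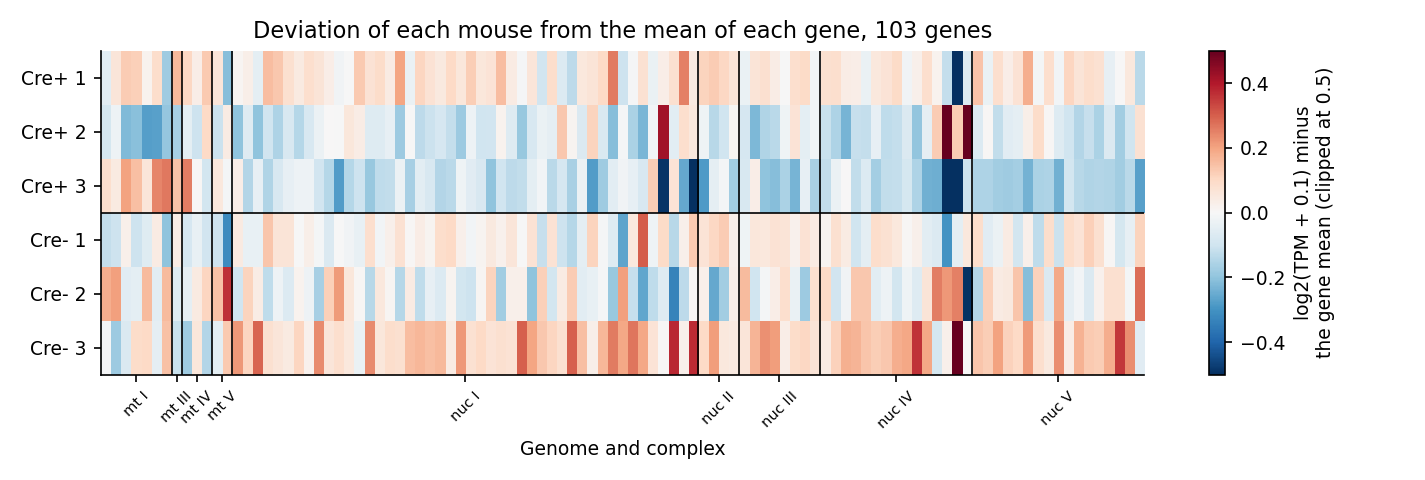
Deviation of each mouse from the mean of each gene on the log2(TPM + 0.1) scale, for the 103 genes averaging 1 TPM or more in order of genome, complex and level, with colours clipped at 0.5. The rows of Cre+ 3 and Cre- 3 are blue and red across most nuclear columns, and Cre+ 2 is blue in the mitochondrial columns.

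For 9 nuclear genes the Alb-Cre+ mice were all below the Alb-Cre- mice, which is 9.57% of the 94, beside 2.71% over all genes tested. No respiratory chain gene had Alb-Cre+ mice all above, beside 2.19% of all genes. The 9 were Ndufa1, Ndufc2, Ndufv2 and Ndufa5 of complex I, Uqcrq, Uqcrb and Uqcrc2 of complex III, and Atp5h and Atp5pb of complex V, and none had an unadjusted p under 0.05. They were singled out after their values were seen, and the gaps were small. Ndufa5 was at 134, 118 and 123 TPM in Alb-Cre+ and at 134, 137 and 166 TPM in Alb-Cre- mice, so its groups parted by less than 1 TPM. Atp5pb, a stalk subunit that holds the head of ATP synthase still, was at 275, 269 and 255 TPM against 284, 299 and 321 TPM. Uqcrc2, a core protein of complex III, was at 205, 205 and 185 TPM against 212, 219 and 216 TPM. These genes had the largest gap in pair 3 with the exception of Uqcrq, which had it in pair 2.

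Across the pairs, 22 nuclear genes were lower in Alb-Cre+ in all 3 (23.4%, beside 12.4% over all genes) and no respiratory chain gene was higher in all 3 (beside 11.5%). Of the 22, 8 belonged to complex I, 4 to complex III, 4 to complex IV and 6 to complex V. The 13 mitochondrial genes had none in either direction.

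Single nuclear genes with the most extreme estimates were mostly low in level. Cox7a1 had the lowest of the respiratory chain genes of at least 1 TPM, a log2 difference of -0.67 (SE 0.31, limma adjusted p = 1.00). Its levels were 3.03, 4.84 and 2.87 TPM in Alb-Cre+ and 4.28, 5.29 and 7.79 TPM in Alb-Cre- mice. It was lower in Alb-Cre+ in each pair, but the groups overlapped. Brown fat markers, a list that holds Cox7a1 itself, summed to 8.51 to 82.1 TPM in Alb-Cre+ and 19.3 to 32.3 TPM in Alb-Cre- mice. Of this, Elovl3 was at 31.5, 1.21 and 75.3 TPM in Alb-Cre+ and 12.0, 1.73 and 17.3 TPM in Alb-Cre- mice. Ppargc1a averaged 5.24 TPM and Cidea 0.104 TPM, with Ucp1 at 0. The part of these markers in the level of Cox7a1 was not tested. Among the respiratory chain genes of at least 1 TPM, Ndufa4l2 had the highest estimate, 0.29 (SE 0.32). It was carried by Alb-Cre+ replicate 2 with 1.93 TPM beside 0.844 to 1.28 TPM in the other 5 mice.

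In complex I, the assembly factor Ndufaf5 was at 4.03, 4.06 and 2.54 TPM in Alb-Cre+ and 4.29, 3.92 and 5.09 TPM in Alb-Cre- mice, a log2 difference of -0.34 (SE 0.25). The assembly factor Ndufaf6 had the highest estimate, 0.06 (SE 0.20). Both pairs of groups overlapped. Ndufb9, the most abundant nuclear gene of the complex, was at 534, 462 and 543 TPM against 547, 495 and 617 TPM, with the female mice lowest in each genotype.

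In complexes II and III the extremes lay close together. Sdhd was at 373, 339 and 283 TPM against 362, 351 and 370 TPM (log2 difference -0.13, SE 0.14), and Sdha at 207, 180 and 192 TPM against 211, 171 and 200 TPM (0.00, SE 0.13). Sdhd was lowest in Alb-Cre+ replicate 3, and the other 5 mice lay between 339 and 373 TPM. Uqcrh, the hinge protein of complex III, was at 580, 514 and 488 TPM against 594, 578 and 653 TPM (-0.21, SE 0.13), and its groups overlapped in 1 mouse. Uqcrc1 was at 262, 237 and 238 TPM against 258, 216 and 263 TPM, a log2 difference of 0.00 (SE 0.13).

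In complexes IV and V the abundant genes were within their spread. Cox4i1 was at 1268, 1111 and 1100 TPM in Alb-Cre+ and 1212, 1284 and 1234 TPM in Alb-Cre- mice (-0.10, SE 0.13). Cox6a1, whose promoter is shown above, was at 839, 711 and 776 TPM against 839, 742 and 860 TPM (-0.07, SE 0.14), nearly the same in pair 1. Atp5b was at 1781, 1543 and 1452 TPM against 1716, 1460 and 1779 TPM (-0.05, SE 0.16), with groups that overlapped throughout. Atp5k had the lowest estimate of complex V, -0.23 (SE 0.15), at 260, 230 and 230 TPM against 244, 274 and 331 TPM. Atp5g2 was lower by a like amount in each pair (-0.25, -0.20 and -0.22), at 30.8, 35.8 and 28.1 TPM against 36.6, 41.1 and 32.6 TPM. Its limma p was 0.180 and with the block 0.0610, and added to its near copy Gm10175 the log2 difference was -0.07.

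Respiratory chain genes varied little from mouse to mouse. The median coefficient of variation over the 6 mice was 8.37% for the 90 nuclear and 9.76% for the 13 mitochondrial genes, beside 13.9% over the 982 genes of the table averaging 100 TPM or more. For 82 of the 90 nuclear genes it was under 15%. Between the sexes, 17 of 94 nuclear genes tested were lower in both females than in all 4 males (18.1%, beside 4.99% of all genes tested), and 4 were higher in both (4.26%, beside 36.6%). The 17 included Sdha, Sdhb, Uqcrc1, Cox6a1 and Ndufs7, and the 4 were Ndufa2, Cox7a2l, Cox6b2 and Atp5l. Since most genes had a higher TPM in the females (median log2 difference 0.26 over all genes), these counts are relative to that shift.

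Genes that work beside the respiratory chain gave no call at an adjusted p under 0.01. Mitochondrial ribosomal protein genes, whose products translate the 13 mitochondrial RNAs, were estimated lower in Alb-Cre+ in 63 of 78 cases with a median of -0.07, and none had an unadjusted p under 0.05 in either fit. The most abundant were Mrpl52 (157 ± 11.8 against 172 ± 9.90 TPM) and Mrpl17 (136 ± 11.2 against 137 ± 28.5 TPM). Genes for the upkeep, transcription and translation of mitochondrial DNA, led by Hsd17b10 (614 TPM) and Grsf1 (67.7 TPM), were lower in 16 of 32 cases with a median of 0.00. Assembly factors outside the Ndufaf family were lower in 24 of 43 with a median of -0.02, and the most abundant, the copper chaperone Cox17 (117 TPM) and Coa6 (109 TPM), differed by -0.19 and 0.12.

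Of the 18 electron carriers tested, which include the genes of coenzyme Q synthesis and the electron transfer flavoprotein, 11 were lower with a median of -0.05. Etfb (1061 TPM) and Etfa (510 TPM) were the highest. Coq8a, needed to make coenzyme Q, had a p of 0.0408 with the block only, at 89.6, 39.3 and 70.6 TPM against 99.97, 60.4 and 82.3 TPM. Of 9 genes for uncoupling and for exchange of ATP and phosphate, led by Slc25a5 (648 TPM) and Slc25a3 (337 TPM), 7 were lower with a median of -0.05 and none had an unadjusted p under 0.05.

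Of 18 citric acid cycle genes, 9 were lower with a median of 0.01. Sucla2 and Suclg1, which together form the enzyme that turns succinyl-CoA into succinate, the substrate of complex II, had the lowest unadjusted p. Sucla2 was at 119, 107 and 100 TPM in Alb-Cre+ and 128, 132 and 145 TPM in Alb-Cre- mice (-0.32, SE 0.12). The limma p was 0.0325 (adjusted p = 1.00). Suclg1 was at 211, 204 and 176 TPM against 237, 241 and 224 TPM (-0.25, SE 0.12). Its limma p was 0.0722, and it was under 0.05 with the block only, at 0.0365. In both, the groups did not overlap, while Mdh2 (193 TPM), the second most abundant gene of the list, overlapped.

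Of 18 genes for import and folding of mitochondrial proteins, 13 were lower with a median of -0.06. Timm17b, a part of the channel through which nuclear subunits enter, was at 20.1, 20.1 and 19.5 TPM in Alb-Cre+ and 26.1, 31.2 and 26.7 TPM in Alb-Cre- mice (-0.49, SE 0.13). The limma p was 0.00612 (adjusted p = 1.00). The groups did not overlap, and the gap exceeded the spread within each group. The chaperones Hspe1 (301 TPM) and Hspa9 (277 TPM) differed by -0.09 and -0.07.

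Of 9 stress genes, Fgf21, a liver hormone induced by fasting and by mitochondrial stress, was at 4.52, 16.9 and 2.57 TPM in Alb-Cre+ and 22.7, 70.4 and 9.19 TPM in Alb-Cre- mice. It was lower in each pair by 2.31, 2.06 and 1.80 on the log2 scale, although the groups overlapped because the pairs differed in level. The limma p was 0.0518 (adjusted p = 1.00) and with the block 1.66e-05 (adjusted p = 0.0589). Jun (55.6 TPM) and Gdf15 (42.3 TPM), the most abundant of the list, were high in both replicate 1 mice, Jun at 145 and 141 TPM beside 5.94 to 17.4 TPM in the other 4.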

How the data were processed

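Liver RNA of 6 mice was analysed as deposited by the authors: TPM per transcript for 116748 transcripts, made with tools among which the labels name STAR, RSEM and Salmon, on GRCm38. Versions are not given in the sources used here. A second deposited table of the authors' comparison (fold changes, p-values) was not used. TPM were summed per symbol (163 transcripts without one, at most 0.0887% of TPM, were kept by identifier), giving 35703 genes, of which 14219 had a mean of at least 0.1 TPM. Because the unit is TPM and not counts, log2(TPM + 0.1) was fitted with limma 3.58.1 in R 4.3.3 (genotype only, trended variance) and adjusted by the Benjamini-Hochberg method over all genes, with a threshold of 0.01, and no count test was run. Test code was tested on simulated data. Members and lists were chosen with earlier results of these data known.

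Replicate numbers were taken to pair the mice, because deviations from the group means correlated at 0.37, 0.59 and 0.37 across genes within numbers and at -0.44 to 0.17 between them. The labels do not state a pairing, and the highest value, 0.59, was that of the 2 females. The pairing was judged on the same expression values that the block was then fitted to, and p-values with the block depend on it. Annotation and shared 31-base words came from GENCODE M21 (GRCm38), and promoters from RefSeq (GRCm38.p6). Named genes were all mitochondrial members, per complex the highest in mean and the highest and lowest in log2 difference among nuclear genes of at least 1 TPM, isoform and subunit c genes, any gene at an unadjusted p under 0.05 in either fit, and the 2 highest of each further list. p-values rest on 3 mice per group, with the variance of each gene drawn by limma toward a trend with abundance over all genes.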

Additional observations from a re-analysis of the deposited data

Results flagged for a closer look

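The male pairs and the female pair moved in opposite directions for several sums. The difference was not tested on the sums, as there was 1 female pair. A fit of single genes with a sex by genotype term rests on the same pair, so only its estimates are given. As the male minus the female log2 difference, the median was 0.34 over the mitochondrial genes, with 13 of 13 above 0. It was -0.05 over the nuclear genes and -0.23 over all genes. For the mitochondrial genes together, the log2 difference between genotypes in the female pair minus its mean over the male pairs was -0.30, and for all 112 genes it was -0.24. For the mitochondrial genes of each complex it was -0.38 in complex I, -0.29 in complex III, -0.22 in complex IV and -0.38 in complex V. The ratio of the mitochondrial to the nuclear sum differed in the same way, by -0.33 over all 112 genes, -0.41 in complex I and -0.44 in complex V. In complexes III and IV the ratio was higher in Alb-Cre+ in every pair, the female pair included. The log2 differences of pairs 1 to 3 were 0.13, 0.02 and 0.51 in complex III and 0.13, 0.09 and 0.41 in complex IV.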

How the results depend on the processing

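No respiratory chain gene was called under any alternative, including an unadjusted p under 0.05. Over all genes the count stayed at 0 at an adjusted p under 0.01, except without Alb-Cre+ replicate 1, where Gm10240 was called (range 0 to 1 over the mice left out). An unadjusted p under 0.05 gave 249 genes, and 666 with the replicate block, an alternative chosen after seeing the data. The block changed no call of a respiratory chain gene. Leaving out each mouse in turn gave a log2 difference of 0.08 to 0.22 for the ratio of the genomes, 0.01 to 0.10 for the mitochondrial sum and -0.16 to -0.06 for the nuclear sum. Other scalings, subunits only, means of log2 values and removal of the highest gene moved none of these by as much as 1 pooled SD. Scaling by medians of ratios changed the sign of 3 of 107 estimates, and leaving out 1 mouse that of 7 to 17. Alternatives that pair the mice and rescale, or add nuclear copies of mitochondrial genes, were chosen after seeing the data. Depth is unknown, so low genes such as Cox8b, with exact zeros, have no bound.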
